A study of Mus musculus with 45 samples.

Results

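Interferon-stimulated genes are the genes that a cell switches on when it senses an interferon. A list of 43 of them was followed across 45 mouse mammary tumours, 33 counted as type I members (answering interferons alpha and beta) and 10 as gamma-type members (answering interferon gamma). Each was represented by the probe set of highest mean among those carrying its symbol alone. This gave values for 37 of the 43 members, 30 type I and 7 gamma-type, out of 18820 genes with such a probe set. All 37 passed the filter on low values that kept 12123 genes for testing. Parp9, Dtx3l, Irgm2, Igtp and Ifi47 share their probe sets with another symbol, no probe set was listed for Ifi44, and these 6 were not analysed here. Only Irf1 had more than 1 probe set of its own.

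Every tumour grew from mammary tissue fragments of a BALB/c donor without the tumour suppressor gene Trp53, so the control tumours lack it too. The fragments, which were never irradiated, went into inguinal fat pads of BALB/c females, wild-type and 10 weeks of age, whose own epithelium had been taken out at 3 weeks. The hosts had received silicon ions (Si), a densely ionizing particle radiation, or a sham procedure 3 days before the transplantation. Tumours were removed at 1 cm3 over up to 600 days, and their total RNA was put on single-colour Affymetrix arrays. The sham group holds 18 tumours, the 10 cGy group 9, the 30 cGy group 10 and the 80 cGy group 8. The question is whether interferon-stimulated genes differ between tumours that arose in irradiated and in sham hosts.

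Type I interferons bind the receptor IFNAR1-IFNAR2 and act through the kinases JAK1 and TYK2 to form ISGF3, a complex that includes STAT2 and IRF9 and binds the interferon-stimulated response element (ISRE). Interferon gamma binds IFNGR1-IFNGR2 and acts at the gamma-activated site (GAS), and it induces IRF1, which in turn binds ISRE-like sequences. In tumours these genes can be expressed by the carcinoma cells, the stroma or the infiltrating leukocytes, and whole tumour RNA carries all of them.

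Cores of these elements were searched for in the members' promoters. Stretches are printed here for 4 members chosen for holding an ISRE core and 2 gamma-type members chosen for holding a GAS core. The core of the ISRE was searched as 2 copies of GAAA with any 2 bases between them and that of the GAS as TTC and GAA with any 3 bases between them, on both strands, in the 250 bases before each start in the RefSeq promoter table (GRCm38.p6), with overlapping matches counted. The stretch around the matches is written 5′ to 3′ on the gene's strand with the matching bases in capitals. An ISRE core on the opposite strand reads as 2 copies of TTTC with 2 bases between them.

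Ifit1: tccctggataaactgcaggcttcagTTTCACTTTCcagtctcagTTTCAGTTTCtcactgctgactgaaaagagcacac
Ifit3: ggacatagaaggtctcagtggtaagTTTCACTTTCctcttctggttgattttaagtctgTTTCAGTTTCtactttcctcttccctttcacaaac
Isg15: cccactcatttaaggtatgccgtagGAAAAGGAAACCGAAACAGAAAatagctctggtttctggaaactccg
Rsad2: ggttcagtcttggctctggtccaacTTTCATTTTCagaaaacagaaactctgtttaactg
Irf1: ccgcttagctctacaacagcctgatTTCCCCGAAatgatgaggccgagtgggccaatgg
Irf8: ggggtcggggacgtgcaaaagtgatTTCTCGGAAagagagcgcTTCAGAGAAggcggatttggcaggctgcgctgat

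These stretches lie at chr19:34640760-34640838 for Ifit1, at chr19:34583348-34583441 for Ifit3 and, on the minus strand, at chr4:156200850-156200921 for Isg15 and chr12:26456538-26456597 for Rsad2. Those of Irf1 and Irf8 lie at chr11:53769899-53769957 and chr8:120736162-120736238. Ifit1 and Ifit3 hold 2 ISRE cores each, Isg15 holds 3 that overlap, Rsad2 holds 1 ISRE core, Irf1 holds 1 GAS core and Irf8 holds 2. Of the 24 type I members in the promoter table, 7 had an ISRE core (29.2%) and 3 a GAS core (12.5%). The same search found an ISRE core in 7 and a GAS core in 6 of 10 gamma-type members (70% and 60%), Igtp and Irgm2 included. Over all 27025 genes in the table the shares were 3.46% for the ISRE core and 8.13% for the GAS core. Gbp5, Gbp7, Igtp, Irgm2 and the type I member Bst2 held both cores. A match describes the letters in this window and no binding was measured.

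Array medians lay between 5.48 and 5.80, and expression of epithelial genes was uneven: Epcam ranged from 4.80 to 11.97 and Krt8 from 7.01 to 13.36. In 2 tumours the members stood apart from the rest on the low side. With the type I score of a tumour taken as the mean over the 30 members of the log2 value minus that member's mean over all tumours, sham replicate 18 scored -1.75 and 30 cGy replicate 10 scored -1.58, while the next lowest, sham replicate 10, scored -0.61. The same pair had the lowest gamma-type scores, -1.65 and -0.87. Of the 37 members, none was above its mean in sham replicate 18 and 2 were above it in 30 cGy replicate 10. Their array medians, 5.67 and 5.71, lay inside the range of the other arrays, and their median correlations with other tumours, 0.844 and 0.836, ranked 16 and 10 from the lowest of 45. They also held low leukocyte levels: the score over Ptprc, Laptm5, Cd53 and Coro1a was -1.59 and -1.21, ranks 2 and 4 from the lowest. Low leukocyte levels did not always go with low type I scores. Sham replicates 11 and 17, at -1.74 and -1.40, had type I scores of -0.42 and -0.11, and sham replicate 8, at -0.94, had the highest, 1.11. The gamma-type scores of sham replicates 11 and 17, -0.53 and -0.71, were the lowest after the 2 low tumours. That of sham replicate 8 was 0.67. In whole tumour RNA, fewer cells of a type and less RNA per cell cannot be told apart. Several results below were also computed without sham replicate 18 and 30 cGy replicate 10, a choice made after their values were seen.

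The members varied widely between tumours within every host group. The SD of a member over the 45 tumours ran from 0.36 (Trim25) to 0.95 (Oas3) with a median of 0.67, against a median of 0.43 over all 12123 genes, and 33 of the 37 members lay above that median gene. The distance between the lowest and the highest tumour had a median of 3.31 log2 units over members and 2.02 over all genes. It was widest for Ifit3, which ran from 6.15 in sham replicate 18 to 10.87 in 30 cGy replicate 5, a 26.3-fold range. Without sham replicate 18 that range fell from 4.72 to 3.82 log2 units, and without both low tumours it was 8.96-fold and no longer the widest, Usp18 spanning 10.6-fold. In 29 members every tumour lay above 5.67, the median of the table.

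**Figure D1:**
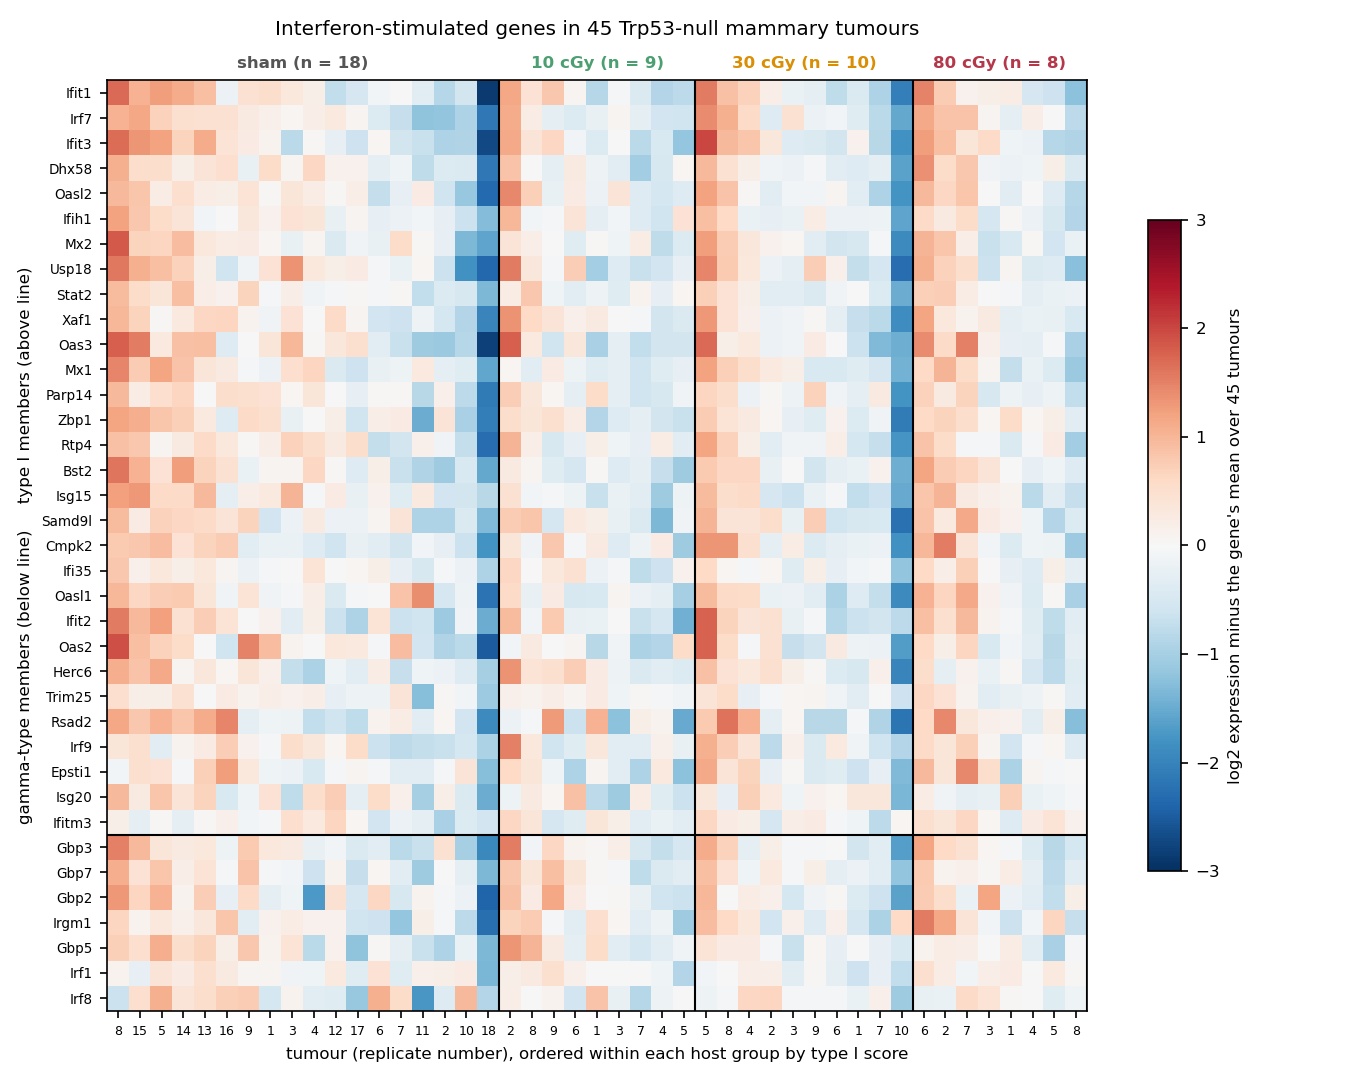
Log2 expression of each of the 37 members (type I members above the black line, gamma-type below it) minus its mean over 45 tumours, with tumours in columns ordered within each host group by type I score. Most members share the high tumours at the left of each group and the low ones at the right, sham replicate 18 and 30 cGy replicate 10 being the lowest.

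Among the regulators, Irf7 encodes the transcription factor that amplifies type I interferon output. Its lowest, median and highest values were 7.68, 10.00 and 10.97 in sham tumours, 9.23, 9.53 and 10.94 at 10 cGy, 8.28, 9.69 and 11.23 at 30 cGy and 9.03, 9.97 and 10.95 at 80 cGy. Stat2, the ISGF3 subunit with a strong transactivation domain, stood at 7.18, 8.56 and 9.47 in sham tumours, 8.16, 8.41 and 9.33 at 10 cGy, 7.05, 8.32 and 9.23 at 30 cGy and 8.24, 8.51 and 9.26 at 80 cGy. In both genes the 4 groups overlapped over most of their range, with the lowest tumour in a sham or a 30 cGy host. Irf9, the DNA-binding subunit of ISGF3, ranged from 8.43 to 10.88 over the 45 tumours, and its highest value belonged to 10 cGy replicate 2.

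The sensors detect viral or misplaced nucleic acid. Zbp1, a sensor of left-handed nucleic acid that can start necroptosis, had lowest, median and highest values of 6.78, 9.06 and 10.02 in sham tumours, 7.96, 8.58 and 9.37 at 10 cGy, 6.76, 8.82 and 9.61 at 30 cGy and 8.53, 9.20 and 9.51 at 80 cGy. The 80 cGy tumours kept the narrowest band, with an SD of 0.35 against 0.86 in sham tumours, while the low end of the sham and 30 cGy groups was set by the pair of low tumours. Ifih1, the cytosolic sensor MDA5 of long double-stranded RNA, ranged from 7.54 to 10.32, and Dhx58, the related regulator LGP2, from 5.69 to 9.22.

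Isg15 encodes a ubiquitin-like protein that is conjugated to other proteins, and the 3 other members of its pathway act around it. Its lowest, median and highest values were 5.01, 6.05 and 7.14 in sham tumours, 4.77, 5.67 and 6.28 at 10 cGy, 4.31, 5.48 and 6.78 at 30 cGy and 5.02, 5.96 and 6.84 at 80 cGy. The medians at 10 and 30 cGy lay below that of sham tumours, but the ranges overlapped. The gene assignment of this probe set, 10451287, rests on the platform annotation alone: 7 of the 8 probe sets nearest to it in number belong to genes of chromosome 17, whereas RefSeq places Isg15 on chromosome 4. Its values nevertheless tracked the other type I members (r = 0.82 with the mean of the other 29), most closely Usp18 (r = 0.83).

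Usp18, the protease that removes ISG15 and also dampens receptor signalling, stood at 7.68, 10.20 and 11.61 in sham tumours, 9.01, 9.77 and 11.58 at 10 cGy, 7.74, 10.01 and 11.48 at 30 cGy and 8.77, 9.88 and 11.09 at 80 cGy. The 4 groups overlapped, and no tumour at 10 or 80 cGy fell below 8.77, whereas sham and 30 cGy tumours reached 7.68 and 7.74. Herc6, which in mice acts as the ligase for ISG15, ranged from 6.26 to 9.57 and Trim25, a ubiquitin ligase that activates the RNA sensor RIG-I, from 7.75 to 9.64.

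The largest role class, the 15 antiviral effectors, includes the IFIT proteins that bind viral RNA. The lowest, median and highest values of Ifit1, whose product binds RNA lacking cap methylation, were 5.22, 8.18 and 9.79 in sham tumours, 7.21, 8.04 and 9.24 at 10 cGy, 6.05, 7.87 and 9.66 at 30 cGy and 6.87, 8.25 and 9.57 at 80 cGy. Ifit3 stood at 6.15, 8.91 and 10.53 in sham tumours, 7.70, 8.77 and 9.98 at 10 cGy, 7.05, 8.73 and 10.87 at 30 cGy and 7.95, 8.98 and 10.11 at 80 cGy. In each of the 4 groups the spread between tumours of the same group exceeded 2 log2 units for both genes, far more than the distance between group medians. Ifit2, of the same chromosome 19 cluster, ranged from 6.42 to 9.67.

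The oligoadenylate synthetases make the messenger that activates RNase L, and their relatives OASL1 and OASL2 lack or modify that activity. Oasl2 had lowest, median and highest values of 8.02, 10.55 and 11.32 in sham tumours, 9.83, 10.18 and 11.79 at 10 cGy, 8.55, 10.26 and 11.55 at 30 cGy and 9.49, 10.35 and 11.32 at 80 cGy. Oasl1, which represses translation of Irf7 mRNA, stood at 6.28, 8.57 and 9.88 in sham tumours, 7.49, 8.27 and 9.07 at 10 cGy, 6.58, 8.22 and 9.44 at 30 cGy and 7.51, 8.57 and 9.63 at 80 cGy. Both overlapped across groups, with Oasl1 medians of 8.27 and 8.22 at 10 and 30 cGy against 8.57 in sham and in 80 cGy tumours. Oas2 ranged from 6.13 to 10.55, and Oas3, which responds to long double-stranded RNA, from 4.85 to 9.44, a 24.2-fold range that was 9.68-fold without sham replicate 18.

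Mx1 and Mx2 encode dynamin-like GTPases that block viral replication. BALB/c is among the laboratory strains whose Mx1 allele carries a deletion, so its transcript is not a measure of working protein. The lowest, median and highest values of Mx1 were 5.01, 6.69 and 8.03 in sham tumours, 5.97, 6.31 and 6.83 at 10 cGy, 5.16, 6.48 and 7.77 at 30 cGy and 5.45, 6.51 and 7.59 at 80 cGy. Mx2 stood at 5.16, 6.81 and 8.58 in sham tumours, 5.97, 6.73 and 7.13 at 10 cGy, 4.84, 6.74 and 7.99 at 30 cGy and 6.07, 6.65 and 7.76 at 80 cGy. The 10 cGy tumours occupied the narrowest band for both genes (SD 0.25 and 0.36, against 0.72 and 0.77 in sham tumours). The low tumour sham replicate 18 held the lowest sham value of both genes and sham replicate 8 the highest.

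Rsad2 encodes viperin, which makes a chain-terminating nucleotide from CTP, and Cmpk2 is its neighbour on chromosome 12. Rsad2 had lowest, median and highest values of 6.46, 8.34 and 9.84 in sham tumours, 6.85, 8.32 and 9.64 at 10 cGy, 6.17, 8.20 and 9.98 at 30 cGy and 7.08, 8.53 and 9.82 at 80 cGy. The 2 genes were each other's closest members over the 45 tumours (r = 0.89), and Cmpk2 ranged from 5.43 to 8.79.

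Bst2 and Ifitm3 encode membrane proteins. Bst2, or tetherin, which holds budding virus at the cell surface, stood at 6.71, 8.32 and 9.86 in sham tumours, 7.17, 7.88 and 8.51 at 10 cGy, 6.78, 8.15 and 9.02 at 30 cGy and 7.86, 8.44 and 9.44 at 80 cGy. Ifitm3, which blocks virus entry from endosomes, had lowest, median and highest values of 11.36, 12.26 and 12.98 in sham tumours, 11.82, 12.12 and 12.95 at 10 cGy, 11.54, 12.46 and 12.94 at 30 cGy and 11.93, 12.64 and 12.95 at 80 cGy. Its group medians of 12.26, 12.12, 12.46 and 12.64 lay within 1 log2 unit, and every group reached 12.94 to 12.98. The exonuclease gene Isg20 ranged from 8.07 to 10.53 and the endosome-associated Samd9l from 5.69 to 9.07.

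The remaining type I members were Parp14, an ADP-ribosyltransferase (6.83 to 9.93), Ifi35 (6.78 to 8.76), the chaperone Rtp4 (7.40 to 10.88), the XIAP antagonist Xaf1 (6.48 to 9.79) and Epsti1 (5.24 to 8.00). Sham replicate 18 or 30 cGy replicate 10 was the lowest tumour for each of these 5, and the highest tumours were spread over all 4 host groups.

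Among the gamma-type members, Irf1 encodes the transcription factor that carries much of the interferon gamma response. Its lowest, median and highest values were 7.88, 9.38 and 9.73 in sham tumours, 8.37, 9.28 and 9.73 at 10 cGy, 8.53, 9.10 and 9.47 at 30 cGy and 9.18, 9.46 and 9.74 at 80 cGy. Irf8, a factor of macrophage and dendritic cell development, stood at 6.73, 8.72 and 9.54 in sham tumours, 7.62, 8.49 and 9.32 at 10 cGy, 7.41, 8.44 and 9.12 at 30 cGy and 8.11, 8.43 and 9.05 at 80 cGy. The spread within the 80 cGy group was the smallest for both (SD 0.18 and 0.32, against 0.43 and 0.82 in sham tumours), and its range lay inside that of the sham tumours for Irf8. The sham SD of Irf1 includes the low tumour sham replicate 18 at 7.88, where the next lowest sham tumour stood at 8.89.

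Guanylate-binding proteins attack the membranes of intracellular pathogens. Gbp2 had lowest, median and highest values of 6.38, 8.80 and 10.09 in sham tumours, 8.14, 8.81 and 9.93 at 10 cGy, 7.18, 8.73 and 9.76 at 30 cGy and 8.03, 8.78 and 9.95 at 80 cGy. Gbp3 ranged from 6.38 to 9.85, Gbp5, which promotes inflammasome activation, from 4.74 to 7.41, and Gbp7 from 7.32 to 9.75. Irgm1, a regulator of the immunity-related GTPases on intracellular membranes, stood at 7.40, 9.80 and 10.51 in sham tumours, 8.61, 9.62 and 10.44 at 10 cGy, 8.71, 9.83 and 10.59 at 30 cGy and 8.98, 9.83 and 11.22 at 80 cGy. The group medians of Irgm1 lay between 9.62 and 9.83, and the highest tumour was 80 cGy replicate 6.

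The members varied together over tumours. The median correlation over pairs of type I members was 0.71 (435 pairs), that over pairs of gamma-type members 0.54 (21 pairs) and that between a type I and a gamma-type member 0.57 (210 pairs), against 0.014 over all pairs of the 12123 genes. These are correlations over the same 45 arrays, given as a description. Without both low tumours the 3 medians were 0.60, 0.39 and 0.43. Within host groups the type I median was 0.72 in sham tumours, 0.50 at 10 cGy, 0.85 at 30 cGy and 0.75 at 80 cGy. Leaving out the low tumour of the group gave 0.58 in sham tumours and 0.74 at 30 cGy.

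Each member was also set against the mean of the other type I members. Ifit1 followed it most closely (r = 0.94), then Ifit3 and Irf7 (both 0.93), Dhx58 and Oasl2 (both 0.91). The gamma-type Gbp3 (0.88) and Gbp7 (0.81) followed it as closely as many type I members did. At the other end stood Irf8 (0.33), Ifitm3 (0.45), Isg20 (0.55) and Irf1 (0.58). The closest member to Ifitm3 was Irf9 (r = 0.72), and no member correlated with Irf8 above 0.56, the value for Gbp5. The type I and gamma-type scores correlated at 0.86 over the 45 tumours and at 0.80 without both low tumours.

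**Figure D2:**
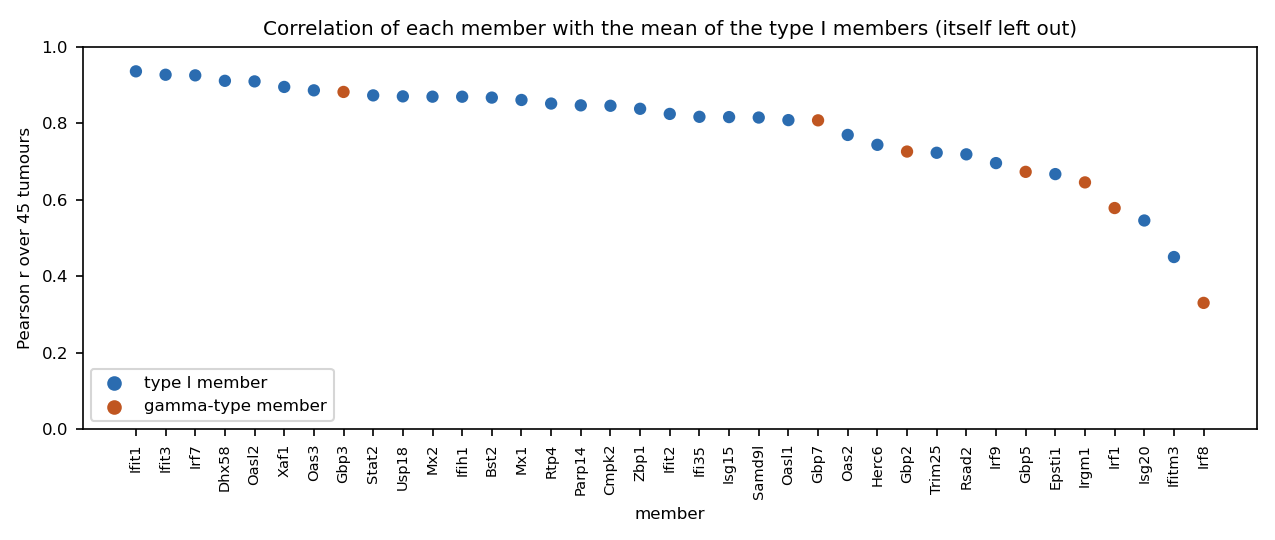
Pearson correlation over 45 tumours of each member with the mean of the type I members, the member itself left out, with type I members in blue and gamma-type members in orange. Values fall from 0.94 for Ifit1 to 0.33 for Irf8, and 5 of the 7 gamma-type members lie at 0.73 or below.

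Single pairs were tested by permuting tumours, 14 pairs in all, with 100000 resamples and Benjamini-Hochberg adjustment. Irf7 correlated with Ifit3 at r = 0.88 (rho = 0.84), Stat2 with Ifit3 at 0.79 (0.73), Irf1 with Gbp2 at 0.71 (0.62) and Ifit3 with Gbp2 at 0.78 (0.72). Each had a two-sided permutation p of 1e-05, the smallest that these resamples can give, and an adjusted p of 2.8e-05. Leaving out the 2 tumours farthest from the median of the first gene gave r of 0.82, 0.71, 0.60 and 0.70. Within host groups r ran from 0.78 to 0.90 for Irf7 and Ifit3, from 0.26 at 10 cGy to 0.93 at 30 cGy for Stat2 and Ifit3, from 0.32 at 80 cGy to 0.79 at 10 cGy for Irf1 and Gbp2, and from 0.69 to 0.90 for Ifit3 and Gbp2.

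Outside the list, the genes most like the type I score were Slfn8 (r = 0.89), Ifi44l, Ifit3b and Oas1a (all 0.88), Eif2ak2, which encodes the RNA-activated kinase PKR (0.87), the nuclear body gene Sp100 (0.85), Trim30a (0.84) and Trim14 (0.83). Those most like the gamma-type score were Trim30a (0.88), Ifi44l (0.86), Slfn8 (0.83), Sp100 and Sp110 (0.82 and 0.81), the GTPase gene Gm12250 (0.81), Ifit3b and Csprs (both 0.80). Likeness was measured as Pearson r over the 45 tumours, and Ifit3b is a close copy of Ifit3 whose probes may not be separate. None of these 11 genes is a member of the list.

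The scores placed high and low tumours in every host group. The highest type I scores were those of sham replicate 8 (1.11), 30 cGy replicate 5 (1.09), 80 cGy replicate 6 (0.87) and 10 cGy replicate 2 (0.74), 1 in each group. The lowest after the low pair were sham replicate 10 (-0.61) and 80 cGy replicate 8 (-0.60). The highest gamma-type scores belonged to 10 cGy replicate 2 (0.80), sham replicate 5 (0.73), sham replicate 8 (0.67) and 80 cGy replicate 6 (0.67), and after the low pair the lowest to sham replicates 17 (-0.71) and 11 (-0.53).

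By group, the type I score averaged 0.03 ± 0.62 (SD, n = 18) in sham tumours, -0.07 ± 0.39 (n = 9) at 10 cGy, -0.08 ± 0.70 (n = 10) at 30 cGy and 0.10 ± 0.51 (n = 8) at 80 cGy. The gamma-type score averaged -0.03 ± 0.58, 0.06 ± 0.46, -0.08 ± 0.40 and 0.09 ± 0.35. Every distance between these means was smaller than the SD of each group. The mean of the 3 dose groups minus sham was -0.05 for the type I score and 0.05 for the gamma-type score, with no test run on a score.

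**Figure D3:**
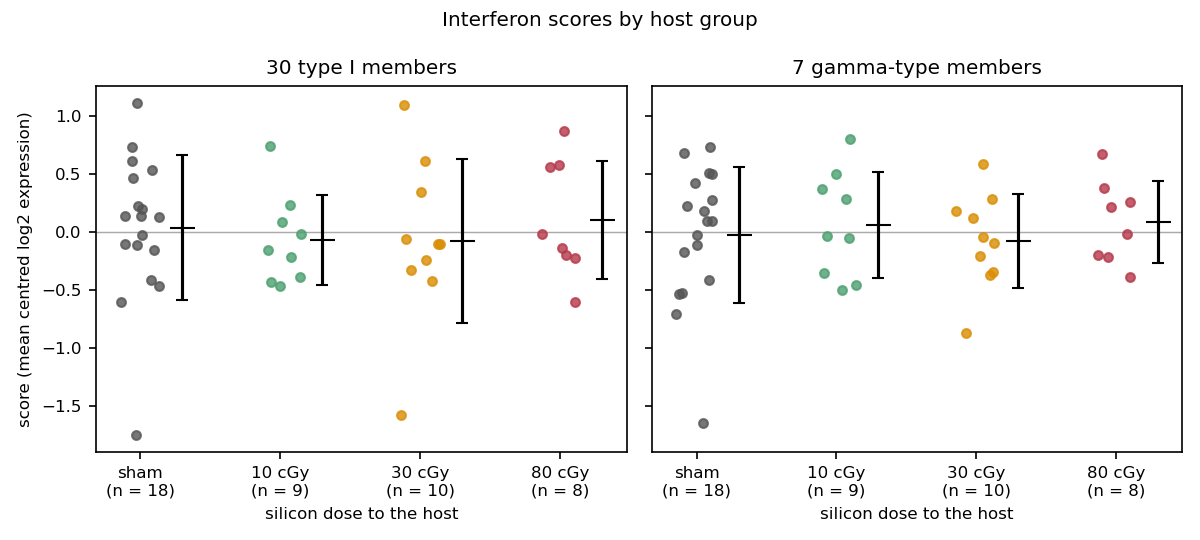
Type I score (left, 30 members) and gamma-type score (right, 7 members) of each tumour by host group, each point being 1 tumour and the bars the group mean ± SD. The groups overlap over most of their range, and the lowest point in each panel is sham replicate 18.

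Tumours of Si-irradiated hosts were then set against tumours of sham hosts gene by gene, with limma's moderated test and Benjamini-Hochberg adjustment over 12123 genes. Errors of differences are standard errors. Limma called 0 of the 37 members and 0% of all genes at an adjusted p under 0.05. At an unadjusted p under 0.05 there were 0 members, where 5.82% of all genes passed (3.51% higher and 2.32% lower). The sign was positive for 14 members and negative for 23, and their median difference was -0.03 log2 units against 0.01 over all genes. The antiviral effectors had 4 higher and 11 lower, the sensors 0 and 3, the ISG15 pathway 2 and 2, and the guanylate-binding proteins 4 and 0, none of them past the test. These signs moved with the low tumours: leaving both out gave 2 and 13 for the effectors, 0 and 3, 1 and 3, and 1 and 3 for the guanylate-binding proteins. The standard errors of the members lay between 0.11 and 0.29, which limits the size of shift these tumours can show.

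The 4 members of smallest p were Isg15, Ifitm3, Irgm1 and Mx1. Isg15 differed by -0.35 ± 0.19 (limma, adjusted p = 0.889), with 7 of 27 tumours above the mean of sham tumours. Ifitm3 differed by 0.17 ± 0.12, with 18 of 27 above. For Irgm1 the difference was 0.25 ± 0.21 (17 of 27 above) and for Mx1 -0.23 ± 0.20 (9 of 27 above), with limma's adjusted p between 0.910 and 0.918 for these 3. Leaving out the pair of low tumours gave 7 members higher and 30 lower with a median of -0.08, and put Isg15 at -0.36 ± 0.18 (unadjusted p = 0.0477, limma adjusted p = 0.907). It lowered Irgm1 to 0.11 ± 0.19, and sham replicate 18 alone left out gave 0.127.

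Among the other named members, Oasl1 differed by -0.24 ± 0.22, Mx2 by -0.13 ± 0.21, Rsad2 by -0.11 ± 0.28, Bst2 by -0.10 ± 0.20, Epsti1 by -0.05 ± 0.19 and Irf7 by 0.12 ± 0.23. Differences of Ifit1 (-0.12 ± 0.28), Ifit3 (0.06 ± 0.28), Oasl2 (0.06 ± 0.22), Usp18 (-0.11 ± 0.28), Stat2 (-0.07 ± 0.15), Zbp1 (-0.03 ± 0.21), Irf1 (-0.02 ± 0.11), Irf8 (-0.06 ± 0.19) and Gbp2 (0.05 ± 0.23) changed sign in at least 1 alternative setting.

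The comparisons of single doses share the sham tumours. At 10 cGy, limma called 0 members and 0% of all genes, with 0 members at an unadjusted p under 0.05 against 3.65% of genes (2.01% higher and 1.64% lower). Members were 12 higher and 25 lower, with a median of -0.05. The smallest p-values belonged to Isg15 (-0.47 ± 0.25), Bst2 (-0.39 ± 0.27), Mx1 (-0.36 ± 0.27) and Oasl1 (-0.34 ± 0.29), each above the sham mean in 1 or 2 of the 9 tumours and each with a limma adjusted p of 0.991. All 4 guanylate-binding proteins were on the higher side, between 0.10 and 0.19, but without both low tumours they stood at 0.002 (Gbp2), -0.01 (Gbp3), 0.11 (Gbp5) and 0.05 (Gbp7). With both low tumours left out, members were 10 higher and 27 lower with a median of -0.16, and Isg15 stood at -0.53 ± 0.24 and Oasl1 at -0.48 ± 0.24, with unadjusted p of 0.0308 and 0.0485 and a limma adjusted p of 0.961.

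At 30 cGy, limma called 0 members and 0% of all genes, with 0 members at an unadjusted p under 0.05 against 4.45% of genes (2.03% higher and 2.43% lower). Members were 6 higher and 31 lower, with a median of -0.13. The smallest p-values belonged to Isg15 (-0.44 ± 0.24), Oasl1 (-0.41 ± 0.28), Irf1 (-0.20 ± 0.14) and Stat2 (-0.22 ± 0.20), all with a limma adjusted p of 0.990. The low tumour 30 cGy replicate 10 lies in this group. Without both low tumours, counts were 12 higher and 25 lower and the median was -0.07.

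At 80 cGy, limma called 0 members and 0% of all genes, and 1 member, Ifitm3, had an unadjusted p under 0.05 on the higher side, where 4.78% of all genes did (2.19% were lower, 6.97% in either direction). Ifitm3 differed by 0.33 ± 0.16 (unadjusted p = 0.0485, limma adjusted p = 0.715). Its mean was 12.56 ± 0.32 at 80 cGy (SD, n = 8) and 12.23 ± 0.40 in sham tumours (SD, n = 18), and 7 of 8 tumours exceeded the latter. Its range at 80 cGy lay inside that of sham tumours. Leaving out both low tumours put it at 0.31 ± 0.17 (unadjusted p = 0.0729, limma adjusted p = 0.843). The next smallest p-values belonged to Irgm1 (0.42 ± 0.29), Irf1 (0.16 ± 0.16) and Irf7 (0.33 ± 0.32), which stood at 0.30 ± 0.26, 0.08 ± 0.12 and 0.21 ± 0.28 without both low tumours. Members were 24 higher and 13 lower with a median of 0.08, against 0.03 over all genes. With that pair left out they were 17 higher and 20 lower with a median of -0.01.

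On the dose in cGy, limma called 0 members and 0% of all genes. Ifitm3 alone had an unadjusted p under 0.05 for a rising slope, 0.0040 log2 units per cGy (limma adjusted p = 0.661), where 4.94% of all genes did (2.49% falling, 7.43% in either direction). Without both low tumours its slope had an unadjusted p of 0.0663 (limma adjusted p = 0.740), and 0 members were under 0.05. Over the 4 groups together the F test called 0 members and 0% of all genes, with 0 members at an unadjusted p under 0.05 against 4.13% of genes. Its smallest p-values were those of Isg15, Irf1, Ifitm3 and Bst2 (limma adjusted p = 0.985 for each).

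**Figure D4:**
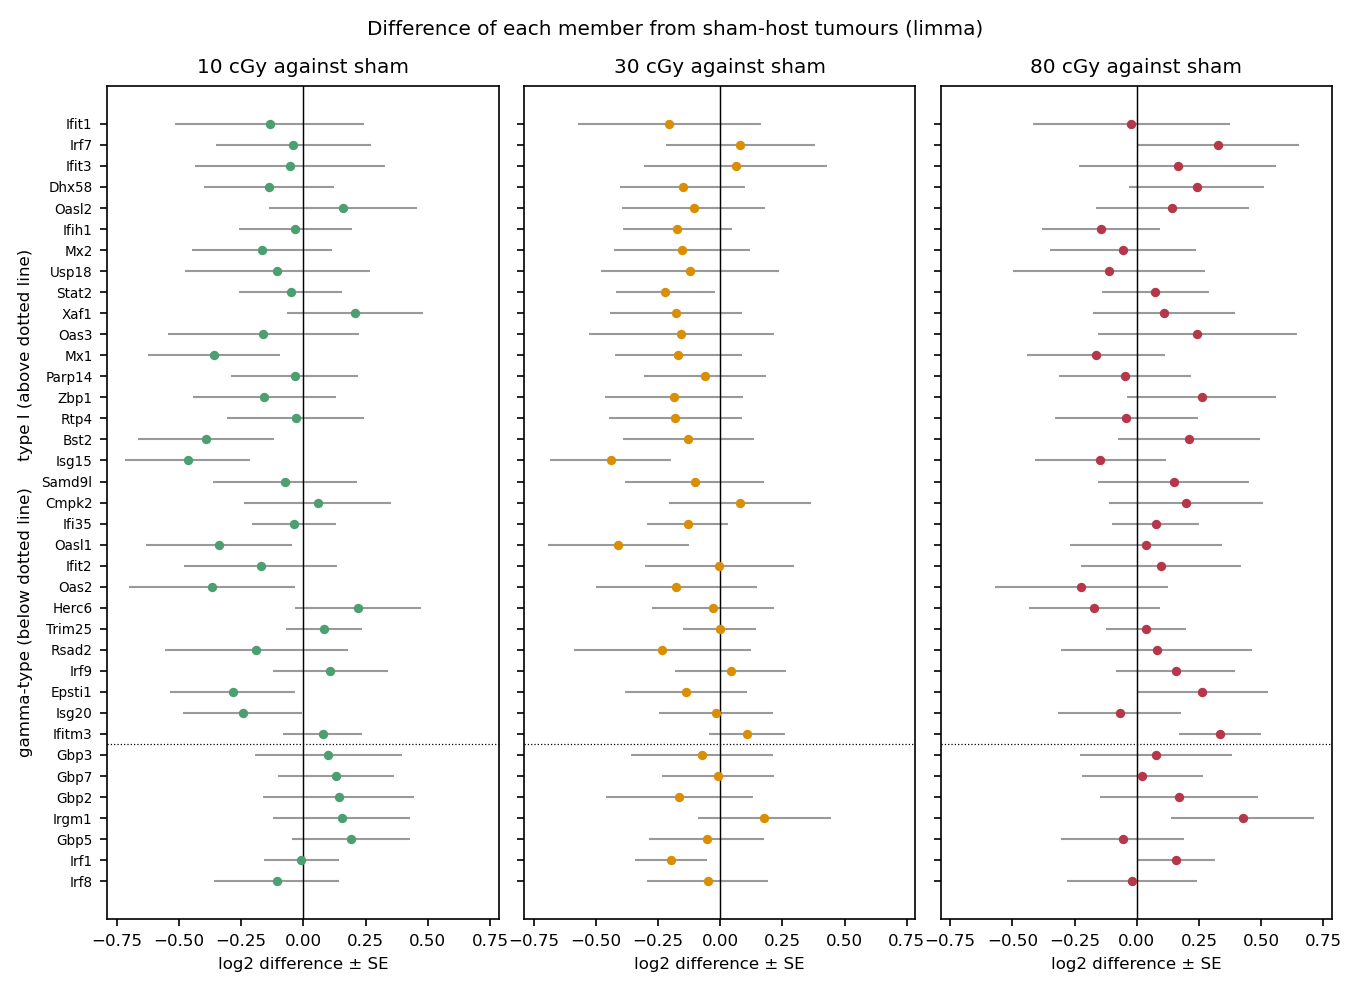
Log2 difference of each of the 37 members from sham-host tumours at 10, 30 and 80 cGy, with points for the limma estimate and bars for its standard error. The estimates lie between -0.47 (Isg15 at 10 cGy) and 0.42 (Irgm1 at 80 cGy), and none passed adjustment.

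Other genes of the pathway gave no called difference either. Of 19 interferon genes listed, 13 were measured and 1, Ifnl2, passed the filter on low values. Ifnb1, the gene of interferon beta, ranged from 3.03 to 4.04 over the 45 tumours and Ifng from 4.29 to 5.71, so neither rose clear of the table median of 5.67 in 8 tumours. Of the receptor and kinase genes, 9 were tested. In the 5 comparisons with a direction, 0 were called and 1, the kinase gene Jak1, had an unadjusted p under 0.05 (lower at 30 cGy, -0.28 ± 0.13, limma adjusted p = 0.99). At 30 cGy, 2.43% of all genes were under 0.05 on the lower side and 4.45% in either direction. The receptor genes Ifnar1 and Ifngr1 differed by -0.15 ± 0.12 and 0.01 ± 0.13 in Si hosts as a whole.

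Among 8 negative regulators, Socs1, which blocks JAK kinases, differed by -0.07 ± 0.13 in Si hosts, the phosphatase gene Ptpn1 by -0.22 ± 0.10 (and -0.27 ± 0.13 at 30 cGy), and Irf2 by -0.23 ± 0.11 at 10 cGy. Ptpn1 and Irf2 had unadjusted p under 0.05 there, with limma adjusted p of 0.819 to 0.991. Shares of all genes on the lower side were 2.32% in Si hosts, 2.43% at 30 cGy and 1.64% at 10 cGy. Among 11 genes of nucleic acid sensing, Mavs, the adaptor of the RNA sensors, and Sting1, the adaptor of the DNA sensor cGAS, were on the higher side at 80 cGy. Their differences were 0.30 ± 0.11 and 0.59 ± 0.23 (unadjusted p = 0.0102 and 0.0122, limma adjusted p = 0.652 for both). Of all genes, 4.78% were under 0.05 on that side and 6.97% in either direction. Sham replicate 18 and 30 cGy replicate 10 had the lowest scores over these 11 genes (-0.885 and -0.733). No values of Mavs and Sting1 without both low tumours are given. Sting1 had lowest, median and highest values of 8.03, 9.69 and 10.34 in sham tumours, 8.44, 9.31 and 10.03 at 10 cGy, 8.62, 9.46 and 10.34 at 30 cGy and 9.77, 9.95 and 11.10 at 80 cGy, and all 8 tumours at 80 cGy lay above the sham mean. The kinase gene Tbk1 stood at -0.25 ± 0.12 at 30 cGy.

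Of 14 interferon gamma-induced genes outside the list, Ido1, which encodes a tryptophan-degrading enzyme, differed most at 30 cGy, by 1.72 ± 0.47 (unadjusted p = 0.000677, limma adjusted p = 0.682). Its lowest, median and highest values were 3.57, 4.19 and 7.18 in sham tumours, 3.61, 3.92 and 7.92 at 10 cGy, 4.23, 5.87 and 9.47 at 30 cGy and 3.65, 4.12 and 6.36 at 80 cGy, so that 30 cGy tumours overlapped sham tumours. Only 9 of 45 tumours lay above the table median, 5.67, where the filter asks for 8. With a 30 cGy median of 5.87, Ido1 would not have passed the filter without the 30 cGy tumours. Its p at 30 cGy therefore carries no weight as a test. Cd274, the gene of PD-L1, stood at 0.57 ± 0.28 at 10 cGy. Of 24 other type I genes tested, Ifitm1, a close relative of Ifitm3, stood at 0.95 ± 0.40, the secreted glycoprotein gene Lgals3bp at 0.57 ± 0.28 and Pml at 0.40 ± 0.18 at 80 cGy, each with an unadjusted p under 0.05 and a limma adjusted p of 0.674 to 0.715. All 8 tumours at 80 cGy were above the sham mean of Ifitm1, inside the range of sham tumours. Of all genes, 4.78% had an unadjusted p under 0.05 on the higher side at 80 cGy and 6.97% in either direction. Sham replicate 18 had the lowest score over these 24 genes (-1.355), which lowers the sham mean. No values without both low tumours are given for Ifitm1, Lgals3bp and Pml.

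The members were set against markers of the cell types a tumour can hold. Irf8 followed Ptprc, the pan-leukocyte gene CD45, at r = 0.89 (rho = 0.87, permutation p = 1e-05, adjusted p = 2.8e-05), and at 0.86 without the 2 tumours farthest from its median. Within groups the value was 0.94 in sham tumours, 0.83 at 10 cGy, 0.93 at 30 cGy and 0.29 at 80 cGy.

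For Ifit3 and Gbp2 the correlation with leukocyte genes was lower, and its call was lost without both low tumours. Ifit3 correlated at 0.37 with Ptprc, 0.32 with the T cell gene Cd3e and 0.32 with the macrophage gene Csf1r, and Gbp2 at 0.42, 0.34 and 0.41. Permutation tests of r gave adjusted p between 0.0096 and 0.0432 for these 6 pairs, whereas those of rho gave 0.058 to 0.106. Without both low tumours none passed, r being 0.18, 0.25 and 0.15 for Ifit3 and 0.23, 0.27 and 0.25 for Gbp2 (permutation test, adjusted p from 0.175 to 0.404). Within groups, r for Ifit3 ran from -0.17 at 80 cGy to 0.52 at 30 cGy with Ptprc, from 0.03 at 80 cGy to 0.60 at 10 cGy with Cd3e and from -0.14 at 80 cGy to 0.68 at 10 cGy with Csf1r. For Gbp2 it ran from 0.11 at 10 cGy to 0.61 at 30 cGy with Ptprc, from 0.23 at 80 cGy to 0.52 at 30 cGy with Cd3e and from 0.38 in sham tumours to 0.72 at 10 cGy with Csf1r. With the epithelial gene Epcam, Ifit3 correlated at -0.09 and Gbp2 at -0.22, and Ifit3 with the proliferation gene Mki67 at -0.12 (0.05 without both low tumours), with adjusted p of 0.556, 0.168 and 0.46 by permutation.

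**Figure D5:**
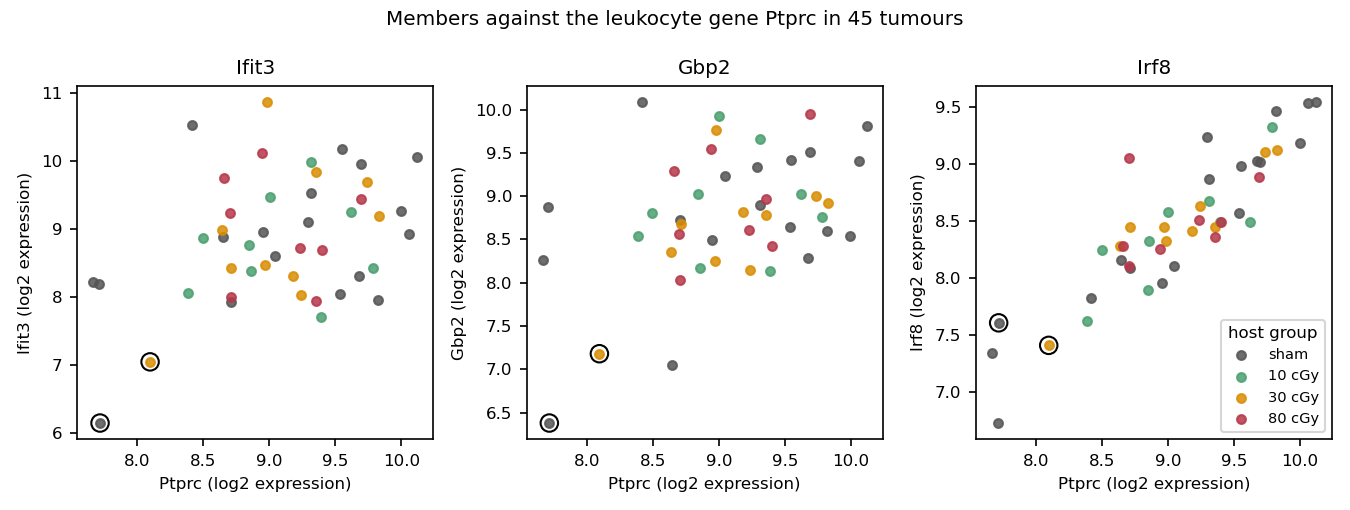
Log2 expression of Ifit3, Gbp2 and Irf8 against Ptprc in 45 tumours, coloured by host group, with sham replicate 18 and 30 cGy replicate 10 ringed. Irf8 rises with Ptprc over the 45 tumours (r = 0.89), while for Ifit3 and Gbp2 (r = 0.37 and 0.42) the ringed tumours extend the cloud at its lower left.

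As a description, the type I score correlated with the leukocyte score at 0.29 over all tumours and at 0.004 without both low tumours, and the gamma-type score at 0.52 and 0.35. Within groups the type I value was 0.34 in sham tumours, 0.36 at 10 cGy, 0.48 at 30 cGy and -0.55 at 80 cGy. Irf8, which followed Ptprc at r = 0.89, is 1 of the 7 genes of the gamma-type score. Ptprc is 1 of the 4 genes of the leukocyte score. Part of the higher gamma-type value can therefore come from Irf8 alone, and its share was not tested. At 10 cGy (n = 9) the type I score correlated at 0.76 with the T cell score and at 0.70 with the natural killer and cytotoxic cell score. The values were -0.12 and -0.32 at 80 cGy (n = 8), with sham and 30 cGy tumours in between. The 10 cGy group holds replicate 2, which had the highest T cell score of all tumours (1.53) and the highest type I score of its group (0.74). The gamma-type score correlated at 0.53 with the natural killer and cytotoxic cell score (0.55 without both low tumours) and at 0.46 with the T cell score (0.44 without them). For the type I score the values over all tumours were 0.31 and 0.27. Plasmacytoid dendritic cells can make large amounts of type I interferon, but their defining marker Siglech ranged from 4.34 to 6.95 and did not pass the filter on low values. The 3 genes kept from their marker list (Tcf4, Cox6a2 and Ly6d) correlated at 0.07 with the type I score. Without Siglech this value is not a measure of these cells, and their relation to the members was not tested. The leukocyte score averaged 0.002 ± 0.92 (SD, n = 18) in sham tumours, -0.09 ± 0.34 at 10 cGy, -0.08 ± 0.60 at 30 cGy and 0.19 ± 0.44 at 80 cGy, and its part in the group values of the members was not tested. Among the single cell type markers, the macrophage gene Cd163 stood at -0.90 ± 0.35 in Si hosts (-1.07 ± 0.47 at 10 cGy and -1.22 ± 0.46 at 30 cGy), the neutrophil genes S100a8 and S100a9 at -1.32 ± 0.57 and -1.25 ± 0.57 at 30 cGy, and the basal keratin gene Krt5 at -2.47 ± 1.15 at 80 cGy. These had an unadjusted p under 0.05 and none passed adjustment (limma, adjusted p from 0.692 to 0.991). They were picked by p from longer lists and do not stand for them. The score over 10 epithelial genes averaged -0.15 ± 1.76 (SD) in sham tumours and -0.21 ± 1.35 at 80 cGy. That over 9 macrophage and monocyte genes averaged 0.09 in sham tumours, -0.26 at 10 cGy, -0.10 at 30 cGy and 0.22 at 80 cGy. The score over 5 neutrophil genes averaged 0.26 in sham tumours and -0.74 at 30 cGy.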

How the data were processed

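Total RNA (250 ng) of each tumour was amplified and hybridised, per the labels' protocols. The authors deposited log2 expression values for each probe set. The submitters' processing notes name RMA (a method of background correction, quantile normalization and summary) and the oligo package, without versions. Of 35556 probe sets, 21218 carry 1 symbol, 1881 several and 12457 none in the platform annotation. A gene was kept where it lay above the table median, 5.67, in at least 8 tumours. Limma 3.58.1 in R 4.3.3 fitted the 4 group means to all 45 tumours without covariates, and the fit was tested on simulated data. The comparisons were the mean of 3 doses minus sham, each dose minus sham, the slope on dose and an F test, with Benjamini-Hochberg adjustment over 12123 genes and a threshold of 0.05. Groups came from the sample titles. The labels do not say whether tumours came from separate hosts. In 8 pairs the description codes share a stem and differ only in the ending, L or R. The main tests treated all 45 tumours as separate, so p-values measure the spread between tumours and not between hosts. The members, lists and tests were chosen with earlier results of these data known. Full values are given for a list of members and for the 4 of smallest p in each comparison. The number of arrays limits the precision. Replicate numbers do not pair tumours across groups (median correlation of their deviations -0.071 over 52 pairs). The alternatives covered the filter, probe set choice, array weights, variance prior, scaling, blocks, sham subsets and tumours left out.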

Additional observations from a re-analysis of the deposited data

Results flagged for a closer look

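Within the groups of 8 to 10 tumours, a single tumour lay far from the others of its group by Dixon's criterion in 17 of 117 cases, each case being 1 member or score in 1 dose group. Chance alone picks out about 5% of such groups, and members vary together, so these are not 17 separate events.

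In 30 cGy replicate 10, 9 members were far below the rest of the group: Stat2 at 7.05 (next value 8.08), Ifih1 at 7.54 (8.88), Dhx58 at 6.24 (7.46), Zbp1 at 6.76 (8.44), Herc6 at 6.26 (7.76), Isg20 at 8.18 (9.32), Samd9l at 5.69 (7.32), Parp14 at 7.17 (8.68) and Irf8 at 7.41 (8.28). In 10 cGy replicate 2, 4 members were far above: Irf7 at 10.94 (10.04), Irf9 at 10.88 (9.72), Oas3 at 9.44 (7.98) and Rtp4 at 10.72 (9.92). Single cases were Stat2 at 9.33 in 10 cGy replicate 8 (8.74), Irf1 at 8.37 in 10 cGy replicate 5 (9.13), Xaf1 at 9.64 in 80 cGy replicate 6 (8.77) and Gbp5 at 5.11 in 80 cGy replicate 5 (5.78). The sham group, with 18 tumours, was not tested, since the criterion was applied to groups of at most 10.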

How the results depend on the processing

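Limma called 0 members in all 6 comparisons under every alternative run, the lowest adjusted p of any member being 0.17, and with each of the 45 tumours left out in turn. Of 19 named members, 10 kept the sign of the Si difference in every alternative apart from leaving out 1 tumour, and none was called. Replicate numbers do not pair the tumours, and with them as a block the differences of Ifit3, Oasl2 and Gbp2 were -0.0877, -0.0257 and -0.0836. Leaving out both low tumours, a setting chosen after seeing the data, gave -0.0309, -0.00882 and -0.0389 for the same genes. With only the 8 sham tumours whose code begins with 6, Ifit1 stood at 0.154, Usp18 at 0.0253, Stat2 at 0.02, Zbp1 at 0.281, Irf1 at 0.0722 and Irf8 at 0.224. Gbp2 was -0.0419 with the 10 sham tumours whose code begins with 5 and -0.0382 with array weights. Zbp1 was 0.0467 with a component of unnamed probe sets as covariate, and Irf1 was 0.025 with the mean of its probe sets and 0.00632 with the code as a random block. With 1 tumour left out the differences ran from -0.099 to 0.159 for Ifit3, -0.0703 to 0.126 for Oasl2, -0.151 to 0.0439 for Zbp1, -0.0971 to 0.0221 for Irf1, -0.164 to 0.00138 for Irf8, -0.0912 to 0.127 for Gbp2 and -0.131 to 0.0181 for Epsti1. Irgm1 kept its sign, at 0.127 to 0.309, and was 0.106 without both low tumours. The causes were not tested. Without both low tumours the correlations of Ifit3 and Gbp2 with Ptprc (0.1835 and 0.2312), Cd3e (0.245 and 0.2748) and Csf1r (0.1475 and 0.2471) lost their call, and that of Ifit3 with Mki67 turned to 0.05312. With arrays centred on their median, Ifit3 with Cd3e was 0.2994 (permutation test, adjusted p = 0.0578). The type I score difference lay between -0.197 and 0.0284 over the alternatives and the gamma-type one between -0.0984 and 0.196.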

Other observations

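The description codes link 8 pairs of tumours of the same host group by a shared stem, 1 ending in L and the other in R. The labels do not give the meaning of stem or ending. The type I scores of such pairs differed by a median of 0.55, against 0.51 for tumours of the same group with different stems. Over genes, limma's consensus correlation within a stem was 0.241. The widest gap was between 30 cGy replicates 5 and 6 (1.09 and -0.24) and the narrowest between sham replicates 13 and 14 (0.46 and 0.53). Among sham tumours, those with codes beginning with 5 had a mean type I score of 0.10 ± 0.50 (SD, n = 10) and those beginning with 6 one of -0.04 ± 0.78 (SD, n = 8), sham replicate 18 being in the second set. Each dose group has a first digit of its own that no sham tumour carries, so the digit and the dose cannot be told apart.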
